A study of Arabidopsis thaliana with 21 samples.

Results

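This report describes the transcripts of 42 Arabidopsis genes for splicing factors and mRNA-binding proteins in iCLIP data, a crosslinking assay with single-base resolution, for the RNA-binding protein AtGRP7. The genes were chosen by family name, with earlier results of these data known, and comprised 18 SR proteins, 2 SR-like proteins, 6 poly(A)-binding proteins, 3 polypyrimidine tract-binding proteins (PTB), 3 UBP1 proteins, 4 RBP45 and RBP47 proteins, 3 components of the early spliceosome (U2AF35A, U2AF65A and U1-70K) and 3 cold shock domain proteins. A crosslink (XL) site belonged to one of them when the transcript it was assigned to was a model of that gene or one of its introns. Of the 42 genes, 12 had at least 1 listed XL site in at least 1 of the 21 libraries. These 12 transcripts held 424 of the 315156 entries, at 225 different positions. Over the whole data set, 4968 genes were listed.

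AtGRP7 is a clock-controlled glycine-rich protein with a single RNA recognition motif. Its own transcript and that of its paralog AtGRP8 are known targets that it steers into unproductive splicing. SR proteins define exons and recruit the U1 and U2 machinery to splice sites, PTB proteins bind pyrimidine tracts next to exons, and UBP1, RBP45 and RBP47 are oligouridylate-binding proteins of the nucleus and of stress granules. Poly(A)-binding proteins coat the poly(A) tail and promote translation, and cold shock domain proteins unwind RNA structure. Many genes of these families are themselves controlled at the level of RNA, often through introns that are retained or spliced in more than 1 way, and so the location of XL sites in their introns and UTRs was of interest.

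In iCLIP, UV light links a protein to the RNA it touches, and reverse transcription stops next to the link, so that each read marks a position 1 nt downstream of an XL site. Plants were grown for 16 days with light and dark phases of 12 h each, moved to continuous light (LL), irradiated with 500 mJ/cm2 at 254 nm after 24 h (LL24) or 36 h (LL36), and used at an age of 18 days. All 3 genotypes carried a transgene under the AtGRP7 promoter. AtGRP7-GFP plants expressed AtGRP7::AtGRP7-GFP in the grp7-1 mutant (5 libraries at LL36, 3 at LL24), R49Q-GFP plants carried AtGRP7::AtGRP7 with an exchange in the RNA recognition motif, fused to GFP, in grp7-1 (2 and 3 libraries), and GFP-only plants carried AtGRP7::GFP in Col-0 (5 and 3 libraries), so the last also kept the endogenous AtGRP7. Lysates were made from aerial tissue, which contains many cell types, and fewer cells that use a gene cannot be told apart from less RNA per cell.

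The AtGRP7-GFP libraries held 27112 to 85904 XL sites at LL36 and 8109 to 25115 at LL24. GFP-only libraries held 21 to 293 and R49Q-GFP libraries 12 to 2721. The listed positions had passed a false discovery rate of 0.05 within their own transcript region, so that a position that is not listed may still have had reads. Transcripts of the leaf markers RBCS1A, LHCB1.3 and RCA were listed in all 8 AtGRP7-GFP libraries, and those of the root markers COBL9 and NRT2.1 in none.

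The sequences below are the 21 nt around XL sites on which the results turn, read 5′ to 3′ on the transcribed strand from the TAIR10.1 reference, with the XL position in capitals and t for u. The first 2 PAB2 positions were listed in all 8 AtGRP7-GFP libraries, the CSP2 positions that carry a base number were those found in 4 of 5 libraries at LL36 or, for base 18072088, the position with the highest mean count, and the last 3 stand for members seen in few libraries.
PAB2 5′ UTR, chr4:16336412-16336432, plus strand: tctatcgtaaTtgtgcttgtt
PAB2 5′ UTR, chr4:16336423-16336443, plus strand: tgtgcttgttTcgcctagaat
PAB2 3′ UTR, chr4:16339994-16340014, plus strand: taactgcgttTgtgttatttt
CSP2 5′ UTR, base 18072901, chr4:18072891-18072911, minus strand: ggtttcgtttTttttaaagat
CSP2 5′ UTR, base 18072907, chr4:18072897-18072917, minus strand: ttctagggttTcgtttttttt
CSP2 5′ UTR, base 18072916, chr4:18072906-18072926, minus strand: cagagtatttTctagggtttc
CSP2 3′ UTR, base 18072008, chr4:18071998-18072018, minus strand: gaaatgctctActtgttgctc
CSP2 3′ UTR, base 18072088, chr4:18072078-18072098, minus strand: cttgatggttTcggattagga
SR45 5′ UTR, chr1:5678696-5678716, minus strand: ttctcgcgatTttctcgatat
RBP45B coding exon, chr1:3915826-3915846, plus strand: tccttgttctActagacctat
PAB5 5′ UTR, chr1:26994110-26994130, minus strand: gaagtagacgGaaaaaaaaaa
Each of these windows occurred once in the 5 nuclear chromosomes, apart from that of CSP2 base 18072088, for which this was not checked. In all but the PAB5 window, 10 to 16 of the 21 bases were pyrimidines. The PAB5 window held 2 pyrimidines and a run of 10 a directly downstream of the XL position.

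First, it was asked how many members were bound. In AtGRP7-GFP plants at LL36, 11 of the 42 members (26.2%) had an XL site in at least 1 library, against 16.1% of 27443 annotated coding genes. A site was called reproducible when the same base was listed in at least 4 of 5 libraries. Only PAB2 (AT4G34110), one of the widely expressed poly(A)-binding proteins, and CSP2 (AT4G38680), an RNA chaperone of the cold response, met this. They are 2 of the 11 listed members, or 18.2%, and 18.6% of the 4435 transcripts listed at LL36 had a reproducible site, so that the share among members was near that of all transcripts. Relative to all 42 members the share was 4.76%, beside 2.99% of coding genes. At LL24, 3 members were listed (7.14%, beside 5.13% of coding genes). At this time point a site was reproducible when the same base was listed in at least 2 of 3 libraries. PAB2 met this, as did 33.2% of 1418 listed transcripts and 1.7% of coding genes, whereas CSP2 was listed in 2 libraries without a shared base. Neither gene had a reproducible site in GFP-only or R49Q-GFP plants, so that PAB2 counted as a candidate target at both time points and CSP2 at LL36. Nearly all transcripts with a reproducible site counted as candidates, 823 of 827 at LL36 and 439 of 471 at LL24. When a site in any single control library removed a transcript, PAB2 was lost at LL24, because 1 R49Q-GFP library listed it, and both genes were left at LL36. Of all transcripts with a reproducible site, this rule left 289 of 471 at LL24 and 725 of 827 at LL36. The controls were shallow. At the mean share of sites that PAB2 and CSP2 took in AtGRP7-GFP plants at LL36, the 5 GFP-only libraries together (428 sites) would hold 0.25 PAB2 and 0.211 CSP2 sites and the 2 R49Q-GFP libraries (544 sites) 0.318 and 0.268. Less than 1 site of either gene was thus expected in each control group at LL36, so that the absence of sites there says little. At the LL24 shares, the GFP-only libraries of LL24 would hold 0.511 PAB2 sites and the R49Q-GFP libraries (3219 sites) 3.12. The latter listed 5, all in 1 library. For CSP2 the LL24 values were 0.089 and 0.542, with none listed.

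**Figure D1:**
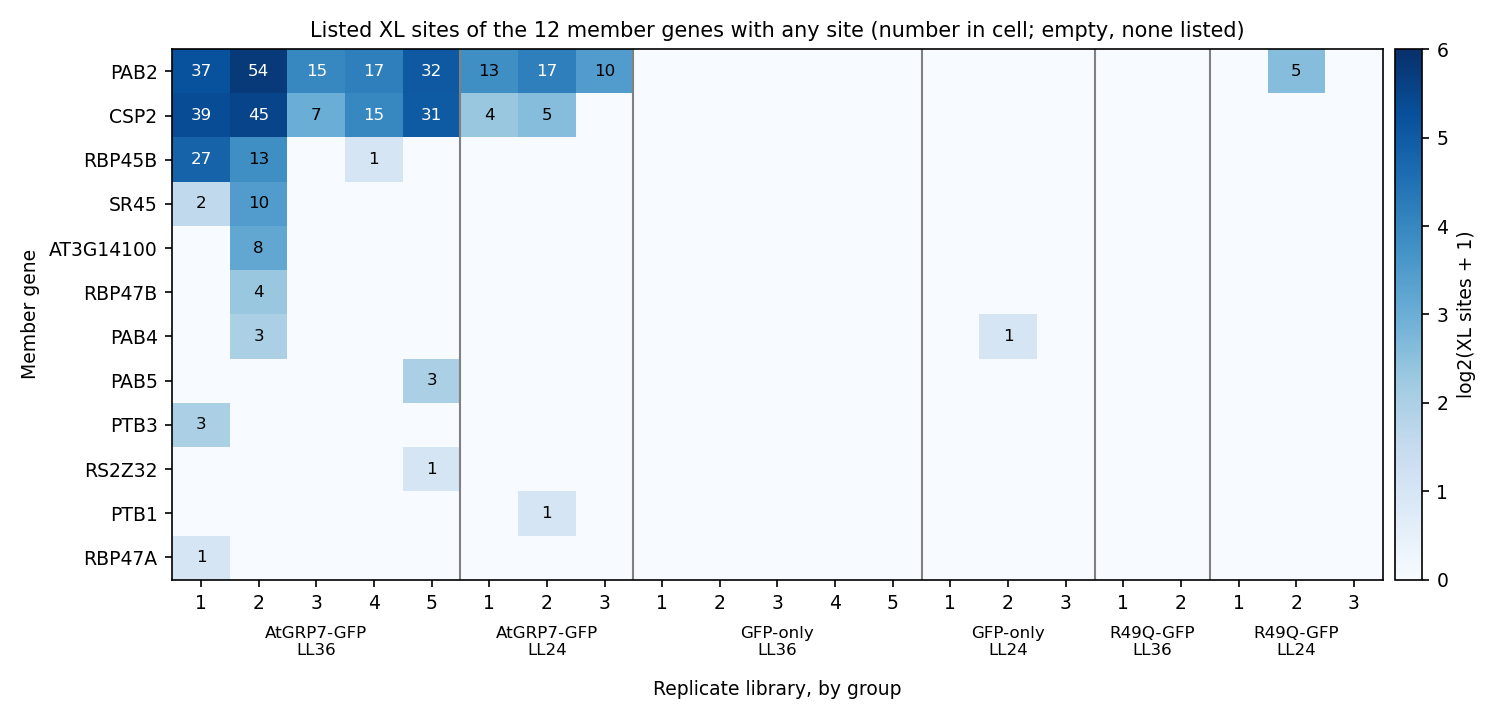
Number of listed XL sites of the 12 members with any site (rows) in each of the 21 libraries (columns, by group), with the colour giving log2(sites + 1) and empty cells standing for no listed site. PAB2 is filled in all 8 AtGRP7-GFP libraries and in 1 R49Q-GFP library, CSP2 in 7 AtGRP7-GFP libraries, and most other members in 1.

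The remaining 9 members with a site at LL36 were seen in few libraries. RBP45B was listed in 3 of 5 libraries, SR45 in 2, and 7 members in 1 each, so that 63.6% of the listed members occurred in a single library, beside 42.9% of all transcripts listed at LL36. The number of members listed followed the size of the library. There were 7 in replicate 2 (85904 sites), 6 in replicate 1 (73046), 4 in replicate 5 (48157), 3 in replicate 4 (29942) and 2 in replicate 3 (27112). The part of depth in the number of members was not tested. PAB2 and CSP2 together held 346 of the 424 entries (81.6%). Member sites made up 0.128% ± 0.0318 (SD, n = 5) of the sites of a library at LL36 and 0.115% ± 0.0205 (SD, n = 3) at LL24. Single crosslinks supported 52.1% of the member entries and 40.5% of all entries.

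The number of genes listed per family is shown in the bar plot by family. As given above, 16.1% of coding genes were listed at LL36, and no family, of 2 to 18 genes each, was tested against this share. RBP45 and RBP47 proteins had 3 of 4 genes listed and the poly(A)-binding proteins 3 of 6. Of the 18 SR proteins, 1 was listed (RS2Z32). There were no sites in U2AF35A, U2AF65A or U1-70K, which read the 3′ and 5′ splice sites. The 17 SR genes without any entry were SR30, SR34, SR34a, SR34b, RS31, RS31a, RS40, RS41, SCL33, SCL30a, SCL30, SCL28, SC35, RS2Z33, RSZ22, RSZ21 and RSZ22a. The other members without an entry were PAB1, PAB3, PAB8, SR45a, PTB2, UBP1A, UBP1B, RBP45A, CSP1 and CSP4. Gene numbers per family are small, and the levels of these transcripts were not measured in the files used here, so that an unlisted gene cannot be told apart from one whose RNA was scarce.

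**Figure D2:**
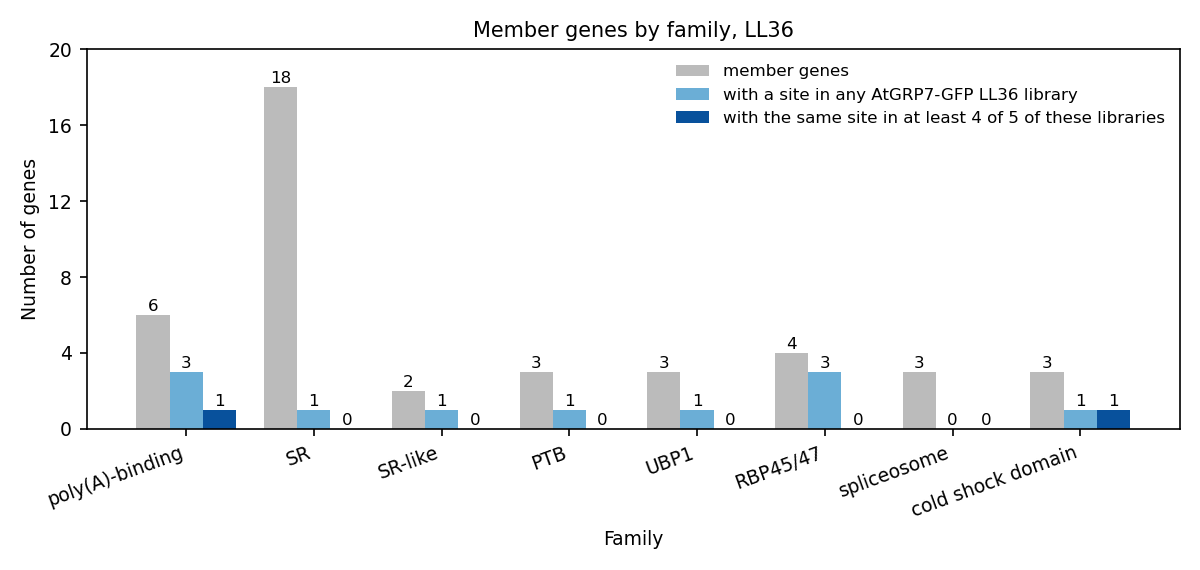
Number of member genes per family (grey), those with an XL site in any AtGRP7-GFP library at LL36 (light blue) and those with the same site in at least 4 of 5 libraries (dark blue). The SR family is the largest with 18 genes, of which 1 was listed, and the reproducible genes are 1 poly(A)-binding and 1 cold shock domain protein.

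None of the 424 member entries lay in an intron. The 42 genes have 288 introns in the models used, 40 of the genes have at least 1, and introns made up 43.8% of the length of the members, compared with 30.4% over all coding genes. All 225 positions were exonic in every annotated model of their gene, and none lay on the antisense strand or within another annotated gene. Intronic positions were rare throughout: 2.76% of all AtGRP7-GFP entries at LL36 and 2.89% at LL24 were intronic, with 2.85% ± 0.408 (SD, n = 5) and 3.10% ± 0.696 (SD, n = 3) per library. Of all listed transcripts, 7.13% had an intronic entry in any library (7.26% in AtGRP7-GFP plants at LL36 and 7.12% at LL24). With so small a share, few or none would be seen among 12 transcripts. Accordingly, 0 of the 17 reproducible member sites at LL36 and 0 of the 9 at LL24 were intronic, beside 2.96% of 18968 and 2.88% of 10650 reproducible sites placed in a region over all transcripts. CSP2, which held 4 of the 17 sites, has no intron.

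Member sites were found mostly in UTRs. Of the 17 reproducible sites at LL36, 16 were in the 5′ UTR and 1 was in the 3′ UTR, and all 9 at LL24 were in the 5′ UTR. Over all transcripts, 12.9% of the reproducible sites at LL36 were in the 5′ UTR, 35.7% in coding exons and 48.4% in the 3′ UTR. The 17 sites come from 2 genes and lie in 3 short stretches, and are therefore not independent. Counted by transcript, 32.4% of 817 transcripts had a reproducible 5′ UTR site at LL36, as both PAB2 and CSP2 did, and 9.67% had such sites in the 5′ UTR only, as PAB2 did. With all 368 member entries at LL36, including those seen once, 48.6% were in the 5′ UTR, 14.1% in coding exons and 37.2% in the 3′ UTR, beside 12.2%, 42% and 43.0% of all entries placed in a region. The pooled share is weighted by the large libraries. Per library, 62.8% ± 28.9 (SD, n = 5) of the member entries were in the 5′ UTR, and 12.5% ± 1.28 of all entries.

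PAB2 showed the most sites. It lies on chromosome 4 (16336291 to 16340314, plus strand) with 9 exons and an unspliced 5′ UTR of 441 nt. At LL36 it had 37, 54, 15, 17 and 32 sites in replicates 1 to 5, supported by 98, 124, 28, 43 and 78 crosslinks. At LL24 it had 13, 17 and 10 sites with 21, 34 and 15 crosslinks. No site was listed in any of the 8 GFP-only libraries or in either R49Q-GFP library at LL36. On the log2(sites + 1) scale the mean at LL36 was 4.85 ± 0.75 (SD, n = 5).

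The PAB2 sites were concentrated in a stretch of 42 nt in the 5′ UTR, 116 to 157 nt from the transcript start and 284 to 325 nt upstream of the start codon. XL sites were listed at 37 of the 42 bases. Of these, 7 bases were listed in all 5 libraries at LL36 and 6 in exactly 4, which gives the 13 reproducible sites. All 9 reproducible sites at LL24 lay in the same stretch, and 4 bases (16336422, 16336428, 16336430 and 16336433) were listed in all 8 AtGRP7-GFP libraries. The highest mean count was found at 16336433, the capital letter of the second PAB2 sequence, with 5.38 crosslinks over 8 libraries. At this base the counts were 4, 2, 4, 12 and 9 at LL36 and 4, 6 and 2 at LL24. At 16336428 they were 17, 2, 2, 7 and 6 at LL36 and 3, 3 and 1 at LL24. The base with the most crosslinks thus changed between libraries, but it lay between 123 and 142 nt from the start in each of them.

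**Figure D3:**
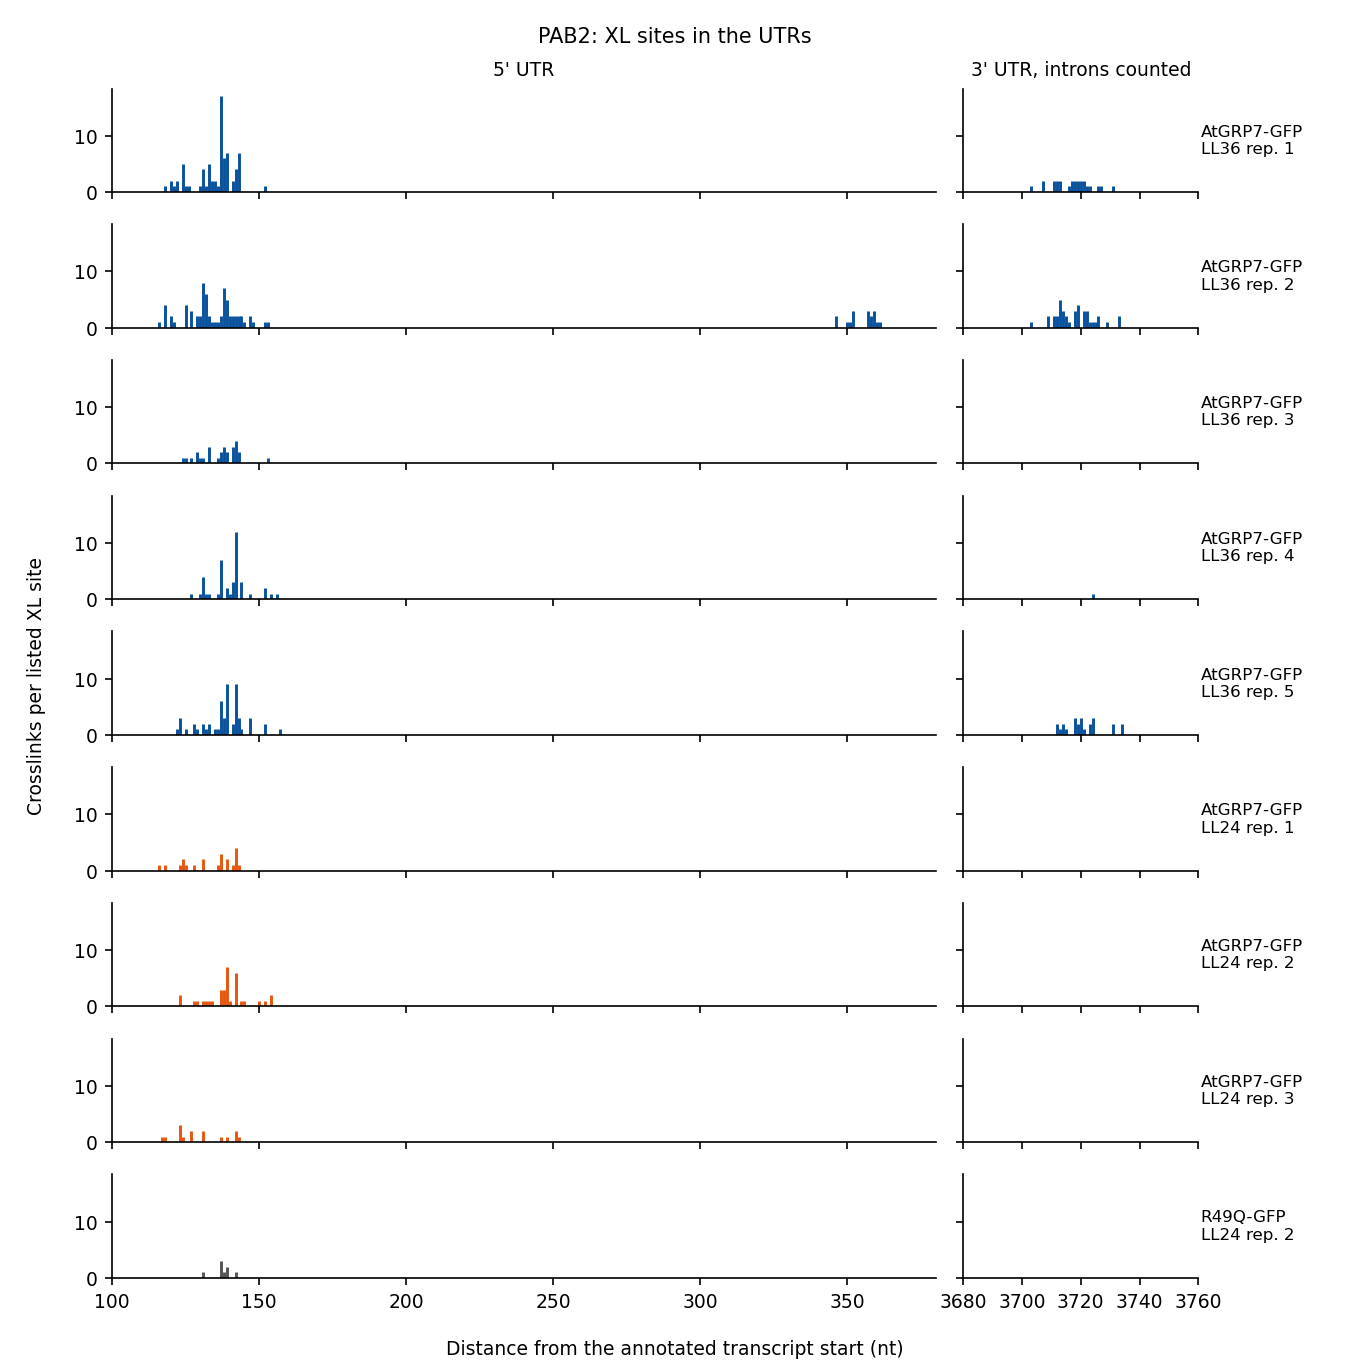
Crosslinks at each listed XL site of PAB2 (y axis) against the distance from the annotated transcript start in nt (x axis, introns counted), for the 5′ UTR and the 3′ UTR, in the 8 AtGRP7-GFP libraries (LL36 blue, LL24 orange) and the R49Q-GFP library with sites (grey). The cluster at 116 to 157 nt appears in every row, the cluster at 346 to 361 nt in 1 row, and the 3′ UTR cluster in 4 rows of LL36.

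A second group of PAB2 sites lay in the 3′ UTR, 102 to 133 nt past the stop codon. It held 16, 18, 0, 1 and 12 sites in LL36 replicates 1 to 5 and none at LL24. Its positions were shared by at most 3 libraries, so that none was reproducible. LL36 replicate 3 (27112 sites) and LL24 replicate 2 (25115 sites), which are of similar size, had 15 and 17 sites in the 5′ cluster and both had none in the 3′ UTR. Whether the 3′ UTR group differs between the time points could not be separated from the number of sites per library. A further group, 346 to 361 nt from the start, had 9 sites in LL36 replicate 2 and none in the other libraries.

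PAB2 was also listed in 1 R49Q-GFP library. At LL24 the numbers of sites in the 3 R49Q-GFP replicates were 0, 5 and 0, with 8 crosslinks in replicate 2, which is the largest control library with 2721 sites. All 5 positions (131, 137, 138, 139 and 142 nt from the start) lay in the 5′ cluster, and 4 of them were the bases listed in all 8 AtGRP7-GFP libraries. As a share, PAB2 took 1.84 per 1000 sites of this library, compared with 0.677 to 1.23 in AtGRP7-GFP plants at LL24. With 3 libraries against 3, an exact permutation test cannot give a p below 0.10, and with 5 against 2 none below 0.0952, so these values are given side by side only.

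CSP2 (chromosome 4, 18071449 to 18073182, minus strand) consists of 1 exon, with a 5′ UTR of 331 nt, a coding region of 612 nt and a 3′ UTR of 791 nt. At LL36, 39, 45, 7, 15 and 31 sites were listed in replicates 1 to 5, with 77, 99, 8, 26 and 50 crosslinks. At LL24 there were 4, 5 and 0 sites with 5, 16 and 0 crosslinks. None of the 13 control libraries listed a CSP2 site. The mean log2(sites + 1) at LL36 was 4.57 ± 1.05 (SD, n = 5).

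CSP2 was crosslinked in both UTRs and at few bases repeatedly. In the main group of the 5′ UTR, sites lay 39 to 77 nt upstream of the start codon, with 2, 12, 7, 11 and 18 sites in LL36 replicates 1 to 5 and 4, 1 and 0 sites at LL24. Thus replicate 1, the next to largest library, had the fewest at LL36, with 3 more sites 10 to 14 nt upstream of the start codon. Bases 18072901, 18072907 and 18072916 were each listed in 4 libraries, and in all 3 cases replicate 1 was the one without the site. The windows of the first 2 share a run of 8 u. In the 3′ UTR, sites 137 to 245 nt past the stop codon numbered 27, 32, 0, 4 and 13 at LL36 and 0, 4 and 0 at LL24. Here only base 18072008 was reproducible, with 4, 2, 4 and 1 crosslinks in replicates 1, 2, 4 and 5. No CSP2 base was listed in all 5 libraries.

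The highest mean count of CSP2, 9.50 crosslinks at base 18072088 of the 3′ UTR, came from 1 library of each time point. It was 8 in LL36 replicate 2 and 11 in LL24 replicate 2. In the coding region, 8 positions were listed 69 to 86 nt past the start codon, 7 in LL36 replicate 1 and 1 in replicate 2. The 2 LL24 libraries with CSP2 sites had no base in common.

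**Figure D4:**
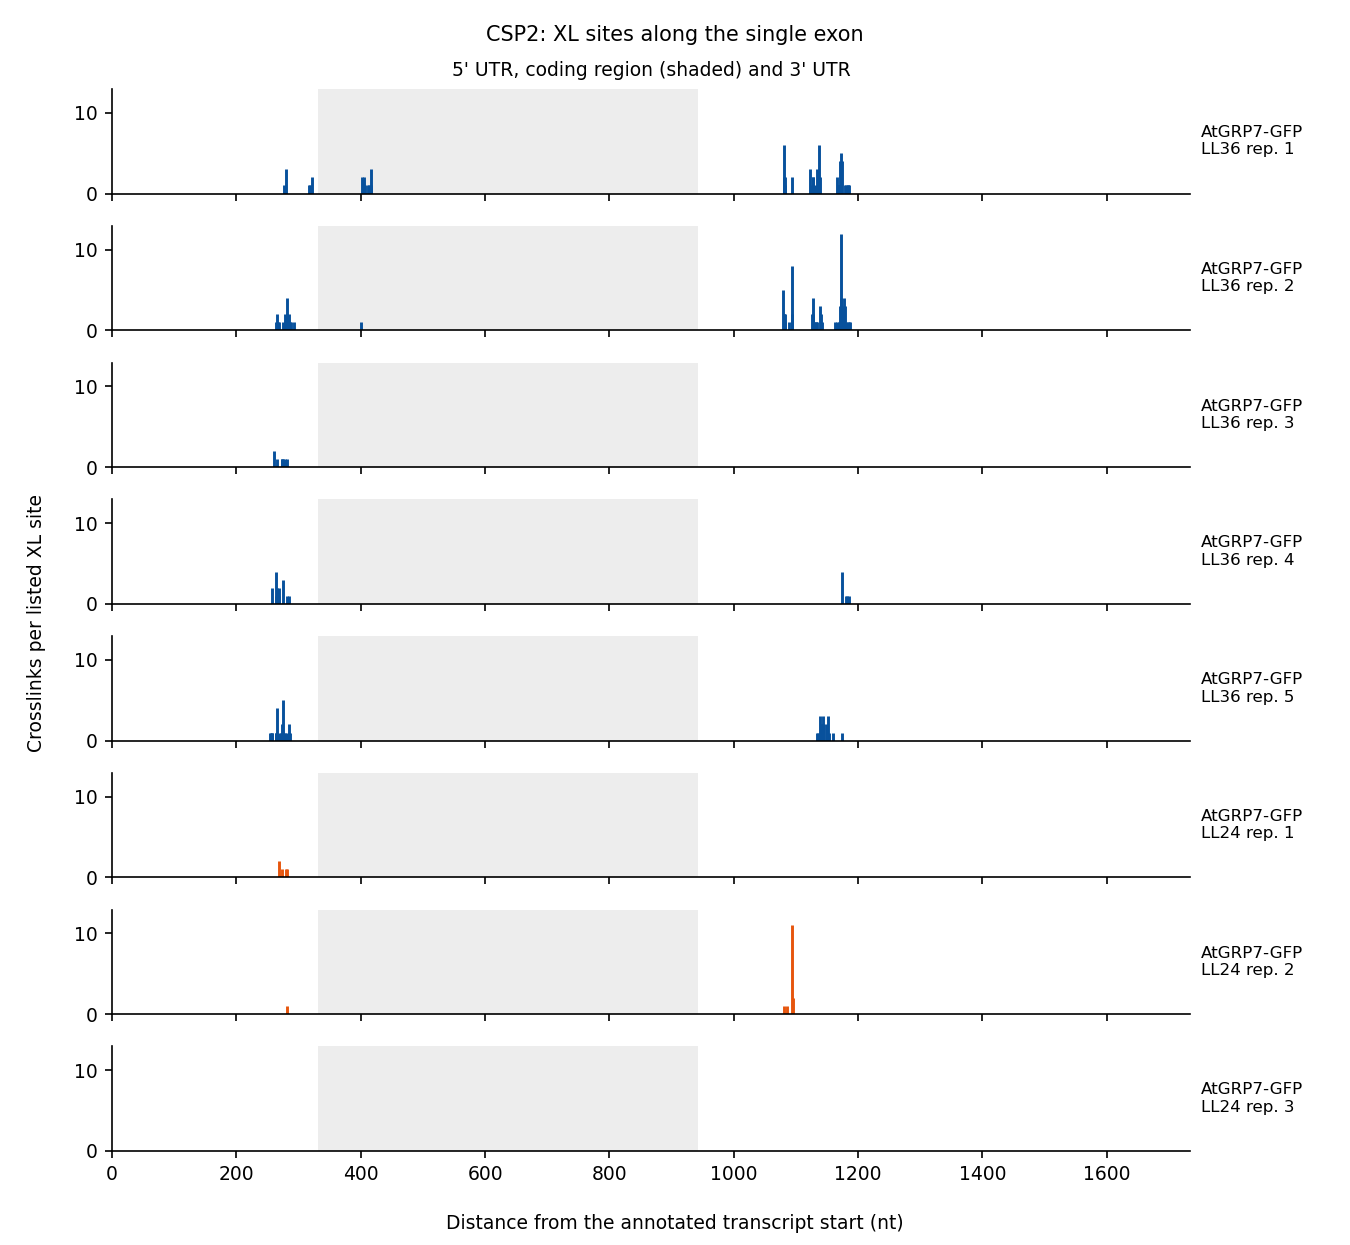
Crosslinks at each listed XL site of CSP2 (y axis) along its single exon (x axis, nt from the annotated transcript start) in the 8 AtGRP7-GFP libraries, with the coding region shaded. Sites form a cluster just before the coding region and a wider one in the 3′ UTR, which is empty in LL36 replicate 3 and in LL24 replicates 1 and 3.

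The comparison of sites per transcript with GFP-only plants at LL36 said nothing about the members beyond whether they were listed. A transcript listed in all 5 AtGRP7-GFP libraries and in none of the GFP-only libraries, which held 21 to 210 sites, gets the smallest p that 5 libraries against 5 allow. This applied to PAB2 and CSP2 (two-sided exact permutation test, p = 0.00794, Benjamini-Hochberg adjusted p = 0.0482), 2 of 11 members tested (18.2%), and 16.5% of all 4497 transcripts were called in the same direction. At their AtGRP7-GFP shares, the GFP-only libraries together would hold 0.25 PAB2 and 0.211 CSP2 sites, so that the absence of both genes there says little. With 1 library left out, no transcript was called (adjusted p between 0.0712 and 0.0963 for both genes). The other 9 members tested had an unadjusted p between 0.167 (RBP45B) and 1 in the exact permutation test. Among candidate targets at LL36, 293 of 823 had more reproducible sites than the 13 of PAB2, and 528 had more than the 4 of CSP2, the median being 7. At LL24, 171 of 439 candidates exceeded the 9 sites of PAB2.

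Between the time points, neither gene was called different. PAB2 took 0.507 to 0.664 per 1000 sites of a library at LL36 (mean 0.584 ± 0.063, SD, n = 5) and 0.677 to 1.23 at LL24 (mean 0.969 ± 0.279, SD, n = 3), without overlap. As a share of crosslinks in place of sites the groups overlapped, with 0.255 to 0.375 per 1000 at LL36 and 0.346 to 0.55 at LL24 (two-sided exact permutation test, p = 0.107, Benjamini-Hochberg adjusted p = 0.85). For CSP2 the shares were 0.258 to 0.644 at LL36 (mean 0.492 ± 0.142) and 0, 0.199 and 0.306 at LL24 (mean 0.169 ± 0.156), with overlap. The unadjusted p-values of the two-sided exact permutation test were 0.0357 for PAB2, the smallest that 5 against 3 allow, and 0.0714 for CSP2. After Benjamini-Hochberg adjustment over 4641 transcripts they were 0.483 and 0.793. No transcript at all was called by this test, while 7.39% of transcripts had an unadjusted p below 0.05. Time point and library size moved together, since each LL36 library held more sites than any LL24 library, and their parts were not tested.

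**Figure D5:**
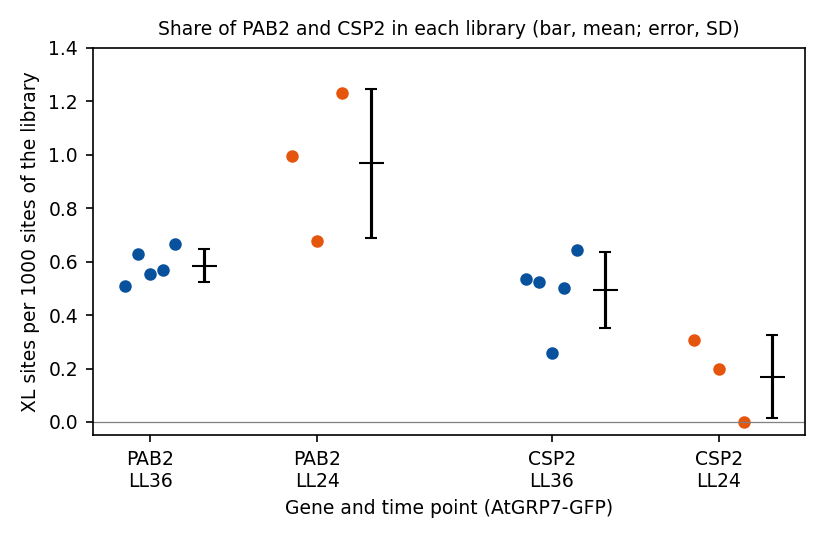
XL sites of PAB2 and CSP2 per 1000 sites of the library (y axis) in the 5 LL36 (blue) and 3 LL24 (orange) AtGRP7-GFP libraries, with each point a library and the black bar and whiskers the mean and SD. The PAB2 points at LL24 lie above all those at LL36, and the CSP2 points overlap.

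Among the members seen in fewer libraries, RBP45B (AT1G11650) had the most sites, 27, 13 and 1 in LL36 replicates 1, 2 and 4. Of these, 40 of 41 lay in coding exons. A stretch of 27 nt in the second exon (chromosome 1, 3915822 to 3915848) held 13 sites in both replicate 1 and replicate 2, of which 9 bases were shared. The 2 largest libraries thus marked the same stretch, whereas no other library listed it. The single site in replicate 4 was in the 3′ UTR. RBP47A had 1 site and RBP47B 4 sites, all in the 3′ UTR, each in 1 library.

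SR45 (AT1G16610), an SR-like protein with RS domains on both sides of its RNA recognition motif, had 2 sites in LL36 replicate 1 and 10 in replicate 2. All lay in the 5′ UTR, 8 to 31 nt upstream of the start codon, and both sites of replicate 1 were also listed in replicate 2. Its highest count at a site was 2. The plant-specific SR protein RS2Z32 had 1 site with 2 crosslinks, in the 3′ UTR, in replicate 5.

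The remaining poly(A)-binding proteins had few sites. PAB5 had 3 sites with 6 crosslinks in the first exon of its 5′ UTR, 135 to 139 nt from the transcript start, in LL36 replicate 5, just upstream of the a-run shown above. PAB4 had 3 single crosslinks in the 3′ UTR, 130 to 139 nt past the stop codon, in LL36 replicate 2. It also had 1 position with 4 crosslinks in its first coding exon in the GFP-only LL24 replicate 2, and this base was not listed in AtGRP7-GFP plants. PAB1, PAB3 and PAB8 had no entry. Reads that mapped to more than 1 place had been removed before the sites were called, so sites in stretches shared by related genes would be missed.

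PTB3 had 3 sites with 4 crosslinks in the first exon of the 5′ UTR, in LL36 replicate 1. PTB1 had 1 site with 1 crosslink, in LL24 replicate 2. This base lay in a coding exon of the named model and in the 5′ UTR of at least 1 other annotated model. PTB2 was not listed. AT3G14100, a UBP1-type protein, had 8 sites in LL36 replicate 2. Of these, 4 were in the last coding codons, 7 to 13 nt before the end of the coding region, and 4 in the 3′ UTR 153 to 159 nt past the stop codon. UBP1A and UBP1B had none.

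The sequences around the reproducible sites were rich in u. The authors state that UV light crosslinks mainly at uridines, and the part of this in the u content was not tested. At LL36 the XL position was u in 11 of 17 member sites (64.7%) and in 58.1% of 19165 reproducible sites over all transcripts. Within 21 nt, u made up 46.5% of the bases around member sites and 40.9% around all sites, u and c together 64.7% and 61.0%, and g 20.7% and 17.8%. PAB2 had 45.1% u and CSP2 51.2%. At LL24, the 9 PAB2 sites had 48.7% u beside 40.9% over all transcripts. The windows of neighbouring sites overlap, and the values are a description of 2 transcripts. The 5′ UTRs as a whole did not stand out in pyrimidines, with 52.4% in PAB2 and 44.4% in CSP2 and a median of 52.9% over 20780 coding genes with a 5′ UTR of at least 50 nt.

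Other genes of the same families and of the splicing machinery were examined as a set of 19. Of these, 9 were listed in any library and 8 in AtGRP7-GFP plants at LL36 (42.1%, beside 16.1% of coding genes). Only SF1 (AT5G51300), the branch point-binding protein, had a reproducible site at LL36 (5.26% of the set, beside 2.99% of coding genes). All 25 entries of SF1 were intronic. They lay at 8 positions within 9 nt of its first intron (chromosome 5, 20849746 to 20849754), with 5, 5, 4, 2 and 3 sites in LL36 replicates 1 to 5 and 1, 3 and 2 at LL24. No control library listed them. In each LL36 library 1 base held most of the SF1 crosslinks, with 45 of 54, 61 of 78, 24 of 31, 19 of 22 and 29 of 34 in replicates 1 to 5. Of these positions, 3 were reproducible at LL36 and 1 at LL24. U2AF35B, the second gene for the small U2AF subunit, had 7 intronic sites in each of LL36 replicates 1 and 2, whereas its paralog U2AF35A had no entry. UBA2A, an hnRNP-type protein, had 4 intronic sites in LL24 replicate 2. Thus 3 of the 9 listed related genes and 0 of the 12 listed members had an intronic entry, beside 7.13% of all listed transcripts. For the related genes, intronic means assigned to an intron of the named model. Whether these bases are exonic in another annotated model was checked for the members only.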

How the data were processed

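Per the labels and the methods, the authors trimmed reads with cutadapt 1.9.1, removed PCR duplicates by random barcode, mapped reads with STAR 2.5.2a to TAIR10 and kept unique hits. The deposited counts are whole numbers of reads starting 1 nt downstream of a position, not scaled for depth, listed only where a false discovery rate of 0.05 within the transcript region was met. The depth of unlisted positions is unknown, and no interval is given.

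Here, sites were matched by chromosome, strand, base and transcript. Regions come from the named model in the RefSeq TAIR10.1 annotation. U was more frequent at the listed base (58.8% on the plus and 57.5% on the minus strand) than at either neighbour, which checks the coordinates. All 42 members were to be named, with values per library for those with a reproducible site. The members, the related genes and the markers were chosen with earlier results of these data known. Groups were compared with two-sided exact permutation tests (smaller tail doubled, Benjamini-Hochberg over all transcripts, level 0.05, pseudocount 1). The test was tried on simulated data of 5 libraries against 5, with the same library sizes in both groups. Controls as shallow as the real ones and groups of unequal number were not simulated. The p-values take the library as the unit and depend on how far the libraries of the groups compared separate. Positions within 10 nt were grouped. Python 3.11.15, numpy 2.4.6 and pandas 2.3.3 were used.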

Additional observations from a re-analysis of the deposited data

Results flagged for a closer look

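In 8 of the 11 members listed at LL36, 1 of the 5 AtGRP7-GFP libraries stood apart from the others in the number of sites, in crosslinks or in both. A gene with sites in a single library always does so, and this was the case for 7 of the 8. The nominal chance rate of about 1 in 20 groups does not hold for genes with sites in so few libraries. No excess over chance can therefore be read from the 8 of 11 members. LL36 replicate 1 was alone in listing PTB3 (3 sites, 4 crosslinks) and RBP47A (1 site, 1 crosslink). LL36 replicate 2, the largest library, was alone in listing AT3G14100 (8 sites, 10 crosslinks), RBP47B (4 sites, 4 crosslinks) and PAB4 (3 sites, 3 crosslinks). LL36 replicate 5 was alone in listing PAB5 (3 sites, 6 crosslinks) and RS2Z32 (1 site, 2 crosslinks). SR45 had 10 sites and 12 crosslinks in replicate 2, and 2 sites and 3 crosslinks in replicate 1, the only other library with a site.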

How the results depend on the processing

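The number of members with a reproducible site at LL36 was 2 with 3 of 5 libraries required or a tolerance of 1 or 3 nt, and 1 (PAB2) with 5 of 5 libraries or at least 2 crosslinks per site. At LL24 it was 1, and 2 with a tolerance of 1 or 3 nt. Leaving out each library gave 2 at LL36 and 1 at LL24 throughout, and the candidate target members likewise. At LL36 the number of libraries required was then lowered by 1, so that the count could not fall. At LL24 a base had to be listed in all remaining libraries, so that the count could not rise. The transcripts removed by the controls were kept the same. If any single control library removes a transcript, 289 of 471 transcripts with a reproducible site are left at LL24 and 725 of 827 at LL36. Of the members, 0 are left at LL24 and 2 at LL36. Without R49Q-GFP LL24 replicate 2, 1 is left at LL24, and without replicate 1 or 3 of that group 0 (chosen after seeing the data). The intronic share was 0% under all alternatives run, which was fixed in advance, because no member entry in any library was intronic.

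In the comparison with GFP-only plants at LL36, less than 1 site of either gene was expected in the controls. In the main run, 2 members and 741 of 4497 transcripts were called. With sites taken per 1000 sites of the library, 0 members and 0 of 4497 transcripts were called (adjusted p = 0.0517 for both genes by the exact permutation test). Each fit with 1 library left out also called 0 members and no other transcript. These zeros are thus not particular to the members. Summed crosslinks and a pseudocount of 0.5 could not alter the p of PAB2 or CSP2, which are at 0 in all GFP-only libraries, and a minimum of 4 libraries selected on the outcome (1214 of 1226 transcripts called), so these 3 settings say nothing about stability. The labels give the groups the same replicate numbers, but same-numbered AtGRP7-GFP and GFP-only libraries did not deviate together (correlations of deviations from -0.0275 to 0.112, and 1 of 5 libraries closest to its own number). Between the time points the correlations were 0.0321, 0.132 and 0.0838, with all 3 libraries closest to their own number, a hint from the data and not from the design. With the replicate number as a block, 0 members and 0 of 4497 transcripts were called against GFP-only plants, since 5 pairs allow no exact p below 0.0625. Between time points 0 members were called under all alternatives run, but most of these could not have called one. The smallest p that the exact tests allowed was 0.25 with the replicate block. It was 0.0571 with 1 LL36 library left out and 0.0952 with 1 LL24 library left out. Only the share of summed crosslinks allowed a p below 0.05.

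Unlisted genes cannot be told apart from genes below the depth of a library, and the controls held few sites.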
